A study of Mus musculus with 4 samples.

Results

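The 10 bile acid synthesis and uptake genes were *Cyp7a1*, *Cyp8b1*, *Cyp27a1*, *Cyp7b1*, *Hsd3b7*, *Slc27a5*, *Baat*, *Slc10a1*, *Slc10a2* and *Fgfr4*. They were taken by symbol from the mm9 annotation, where all 10 were found among 22367 protein-coding genes, and the rule that lists them uses no measured value, although the list was drawn up with earlier results of these data known. Their position at the nuclear periphery was read from LaminB1 DamID in primary hepatocytes of wild-type (WT) mice and of *Tm7sf2* knockout (KO) mice on the C57BL/6 background, aged 12 to 16 weeks. *Tm7sf2*, also called NET47, encodes a transmembrane protein of the nuclear envelope and endoplasmic reticulum that is also a sterol reductase, and no restriction of the KO to hepatocytes is named in the labels. Cells of both genotypes were given a lentivirus for a Dam-LaminB1 fusion or for Dam alone for 24 h (the sources used here differ on the time of harvest), and the DNA of 4 mice was pooled for each of the 4 libraries. Each genotype was therefore represented by 1 pair of libraries without a replicate. No test between WT and KO could be made, no spread between animals can be given, and every difference described here is a difference between those library pairs.

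DamID marks DNA near the lamina by adenine methylation at GATC sites, and stretches enriched over the Dam only control are called lamina-associated domains (LADs). The lists used here give the position of each LAD in WT and in KO, with no signal, and the position of each differential region (DR), a stretch of at least 10 kb that is in a LAD in only 1 genotype. A gene whose span overlaps a WT-only DR was called PI (periphery to interior in the KO), and a gene that overlaps a KO-only DR was called IP. Overlap with both kinds made it ambiguous (AMB). Of the other genes, those with a LAD in both genotypes were called PP and all remaining ones II, for interior in both. Class II thus also takes in a gene with a LAD in only 1 genotype where no DR overlaps it.

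Bile acids are made from cholesterol in hepatocytes and are the main route by which the body disposes of cholesterol. The classical pathway opens with CYP7A1, the rate-limiting 7-alpha-hydroxylase, and CYP8B1 sets the proportion of cholic acid. The alternative pathway opens with the mitochondrial sterol 27-hydroxylase CYP27A1 and continues with the oxysterol 7-alpha-hydroxylase CYP7B1. HSD3B7 then modifies the sterol ring, SLC27A5 and BAAT conjugate the acid to an amino acid, and SLC10A1 (NTCP) returns bile acids from the blood to the hepatocyte. SLC10A2 (ASBT) takes bile acids up in the ileum and in cholangiocytes, and FGFR4 is the hepatocyte receptor for the ileal hormone FGF15, which represses *Cyp7a1*.

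The sequences on which the descriptions of *Cyp7a1* and *Cyp7b1* turn are shown first, read from the NCBIM37 assembly, which has the same sequence and coordinates as mm9. The promoter of *Cyp7b1* (chr3:18143339-18143588, minus strand), the 250 bases before the start of transcription, is shown 5′ to 3′ because it lay in a LAD in the KO only. Capitals would mark GATC, the site that Dam methylates, of which it held none.
Cyp7b1 promoter: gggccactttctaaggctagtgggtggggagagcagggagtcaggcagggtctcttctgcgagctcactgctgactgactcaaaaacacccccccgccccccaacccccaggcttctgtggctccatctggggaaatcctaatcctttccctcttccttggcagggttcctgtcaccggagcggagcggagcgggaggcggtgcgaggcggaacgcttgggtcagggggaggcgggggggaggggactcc
A GATC was present in the 250-base promoters of 40.2% of all protein-coding genes and of 5 of the 10 bile acid genes.

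LAD borders in these lists fall inside GATC sites, between the T and the C, at 98.9% of WT and 99.5% of KO borders. The borders at *Cyp7a1* and *Cyp7b1* and within *Slc10a2* are shown on the plus strand with that GATC in capitals, as windows of 64 bases. Those on *Cyp7b1* and *Slc10a2* set which part of the gene was counted as peripheral, and the one at *Cyp7a1* lies outside the gene.
Cyp7a1, start of the upstream WT LAD (chr4:6203202-6203265): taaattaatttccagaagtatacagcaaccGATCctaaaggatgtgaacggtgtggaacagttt
Cyp7b1, end of the first KO LAD (chr3:18028022-18028085): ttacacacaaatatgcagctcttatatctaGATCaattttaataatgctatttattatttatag
Cyp7b1, end of the first WT LAD (chr3:18056087-18056150): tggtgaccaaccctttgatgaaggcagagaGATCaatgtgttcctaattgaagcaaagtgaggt
Cyp7b1, start of the other KO LAD (chr3:18057342-18057405): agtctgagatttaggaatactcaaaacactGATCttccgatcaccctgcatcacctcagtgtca
Cyp7b1, start of the other WT LAD (chr3:18075406-18075469): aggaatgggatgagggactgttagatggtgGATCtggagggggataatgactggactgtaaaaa
Cyp7b1, end of the other WT LAD (chr3:18137765-18137828): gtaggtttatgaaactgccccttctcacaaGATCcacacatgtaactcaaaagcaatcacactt
Slc10a2, end of the WT LAD on the gene (chr8:5087887-5087950): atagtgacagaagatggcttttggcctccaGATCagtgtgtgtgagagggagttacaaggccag
The 5 borders of *Cyp7b1* from chr3:18028022 to chr3:18137828 all lay in its first intron, so no exon was cut by a border.

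Most bile acid genes were interior in both genotypes. Of the 10 genes, 9 were II and 1, *Cyp7b1*, was AMB, and none was PI, IP or PP. Over all protein-coding genes, 56.6% were II, 2.96% AMB, 5.43% PI, 17.1% IP and 17.9% PP. A LAD lay on 2 of the 10 genes in WT (*Cyp7b1* and *Slc10a2*) and on 1 in the KO (*Cyp7b1*), against 30.4% of all genes in WT and 41.7% in the KO. The start of transcription was in a LAD in 0 of the 10 genes in WT and in 1 in the KO (*Cyp7b1*), against 22.7% and 32.8% of all genes. With 10 genes these counts are coarse, and they describe the list without setting it apart from other genes.

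By length, 49.1% of the summed span of 303.386 kb was in LADs in WT and 46.8% in the KO, a KO minus WT difference of -2.23 percentage points. Over all protein-coding genes the shares were 38.3% in WT and 42.3% in the KO, so there the KO share was the higher. Nearly all LAD sequence on the 10 genes was on *Cyp7b1*. Its 171.389 kb made it the longest of the list, where the median span was 16.6 kb and the shortest, *Cyp8b1*, 1.95 kb. Of the 72 exons of the 10 genes, 65 were outside LADs in both genotypes, 5 were inside in both, 1 was inside in WT only and 1 in the KO only. The exons inside LADs all belonged to *Cyp7b1* and *Slc10a2*. The shares over the exons of all genes were not computed, so these counts have no background beside them.

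**Figure D1:**
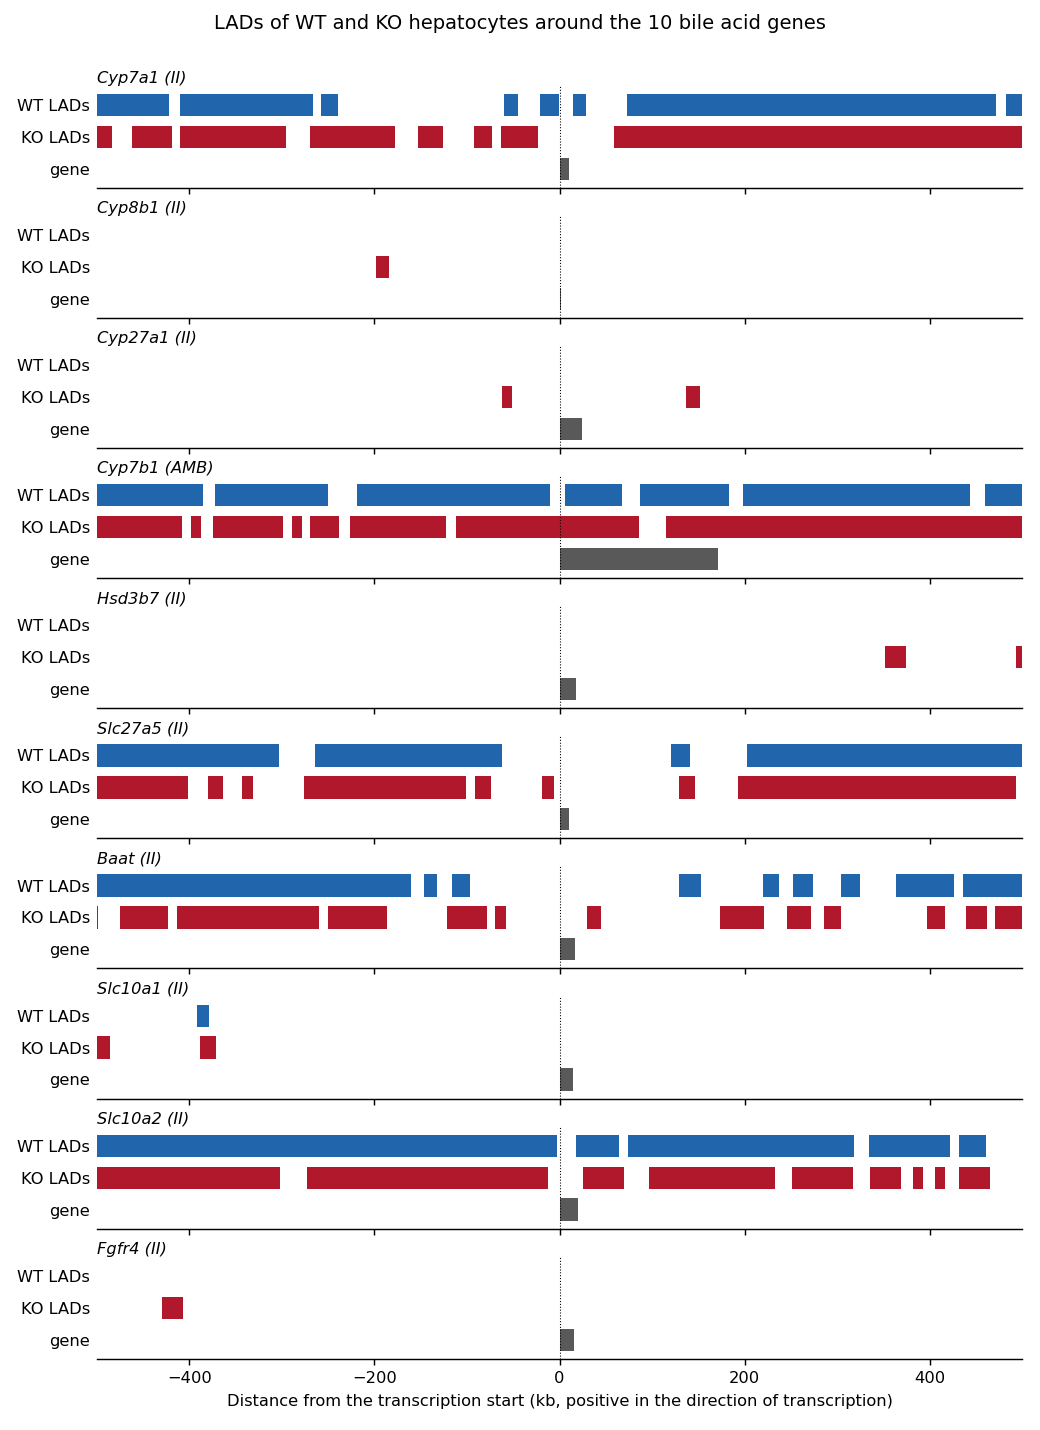
LADs of WT (blue) and KO (red) hepatocytes within 500 kb of the transcription start of each bile acid gene, with the gene span in grey. The horizontal axis is the distance from the start in kb, positive in the direction of transcription. *Cyp7a1*, *Cyp7b1*, *Slc27a5*, *Baat* and *Slc10a2* sit among many LADs of both genotypes, and *Cyp8b1*, *Cyp27a1*, *Hsd3b7*, *Slc10a1* and *Fgfr4* among few.

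*Cyp7a1* (ENSMUSG00000028240.2, chr4:6192759-6202780, minus strand, 6 exons) was II, with no base in a LAD in either genotype, but the LADs closest to it were present in WT only. It lay in a gap between 2 short WT LADs. The upstream LAD, of 20.7 kb (chr4:6203235-6223964), began 454 bp from the start of transcription, and the downstream LAD, of 13.6 kb (chr4:6174232-6187798), stood 4.96 kb beyond the end of the gene. Neither overlapped a KO LAD, and both were WT-only DRs in full. In the KO the nearest LAD was upstream as well (chr4:6226299-6266573, 40.3 kb), at 23.5 kb, and the nearest on the downstream side was 49.3 kb away. The distance to the nearest LAD was therefore 0.454 kb in WT and 23.5 kb in the KO, the reverse of the order in most genes of the list. These distances were the same with LADs of at least 20 kb. With LADs of at least 50 kb they were 62.8 kb in WT and 49.3 kb in the KO, so the order depended on short LADs. Neither WT-only DR held another protein-coding gene.

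Over the 100 kb centred on *Cyp7a1*, LADs covered 34.3 kb in WT and 21.5 kb in the KO. Over 1 Mb the order turned, with 705 kb in WT and 793 kb in the KO. The lower LAD cover in the KO was thus a matter of the stretch next to the gene. Both flanking genes were IP: LADs covered 38.5% of *Ubxn2b*, downstream, in WT and 82.4% in the KO, and of *Sdcbp*, upstream, 0% in WT and 21.8% in the KO. With the span extended by 10 kb at both ends, with LADs extended by 5 kb or with LADs joined across gaps of at most 50 kb, *Cyp7a1* was PI. By the 100 kb window it was AMB, and under the other settings it stayed II.

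*Cyp8b1* (ENSMUSG00000050445.4, chr9:121823474-121825423, minus strand), a gene of a single exon, was II and the farthest from any LAD in WT, at 1726.57 kb. In the KO the nearest LAD was 184 kb upstream, a domain of 14.5 kb that overlapped no WT LAD. That domain was the whole of the LAD sequence in the surrounding 1 Mb, where WT had none. Its flanking genes *Ccbp2* and *1700048O20Rik* were II. In WT, 5.92% of all protein-coding genes were farther from a LAD than *Cyp8b1*, and in the KO 21.6%.

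*Cyp27a1* (ENSMUSG00000026170.5, chr1:74760148-74784464, plus strand, 9 exons) was II, with its nearest LAD at 822 kb in WT and at 50.9 kb in the KO. The surrounding 1 Mb held no LAD sequence in WT and 26.2 kb in the KO, in 2 domains of 11.1 kb and 15.1 kb on either side of the gene, neither of which overlapped a WT LAD. The upstream domain reached into *Ttll4*, a tubulin ligase family gene, which was IP by an overlap of 2.39% of its span. *Prkag3*, on the other side, was II. Only LADs under 20 kb brought the KO nearer here: with shorter LADs left out, the distance was 822 kb in WT and 916 kb in the KO.

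*Cyp7b1* (ENSMUSG00000039519.6, chr3:17971950-18143338, minus strand, 6 exons) was the gene of the list that lay in LADs, and the LADs on it were arranged differently in the genotypes. LADs covered 85.5% of it in WT and 82.9% in the KO. The WT LADs (chr3:17959938-18056119 and chr3:18075439-18137797) did not cover the start of transcription or a gap inside the first intron. The KO LADs (chr3:17484022-18028054 and chr3:18057375-18255264) covered the start but not a stretch of the same intron that overlapped the WT gap in part.

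The difference consisted of 3 DRs. A WT-only DR of 28.1 kb (chr3:18028055-18056119) made up 16.4% of the gene and held no exon. A KO-only DR of 18.1 kb (chr3:18057375-18075438) made up 10.5% of the gene and also held no exon. The other KO-only DR, of 15.9 kb (chr3:18137798-18153666), had 5.54 kb on the gene, 3.23% of its length, and held the start of transcription and exon 1. The distance from the start to the nearest LAD was 5.54 kb in WT and 0 kb in the KO. Exons 2 to 6, which lie together at the far end of the gene, were in LADs in both genotypes.

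The AMB call rests on the whole span. By the start of transcription alone *Cyp7b1* was IP, with at least 50% of the span required in a DR it was PP, and with LADs extended by 5 kb it was PI. Of the 2401 protein-coding genes of at least 100 kb, 20.5% were AMB, so the class was more frequent among genes of this length than among all genes. LADs covered 80.7 kb of the 100 kb around the middle of the gene in WT and 70.7 kb in the KO, and 890 kb of the surrounding 1 Mb in WT and 905 kb in the KO. The flanking genes *Bhlhe22* and *Armc1* were both IP, with 0% of either in a WT LAD and with 100% and 21.8%, respectively, in a KO LAD.

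**Figure D2:**
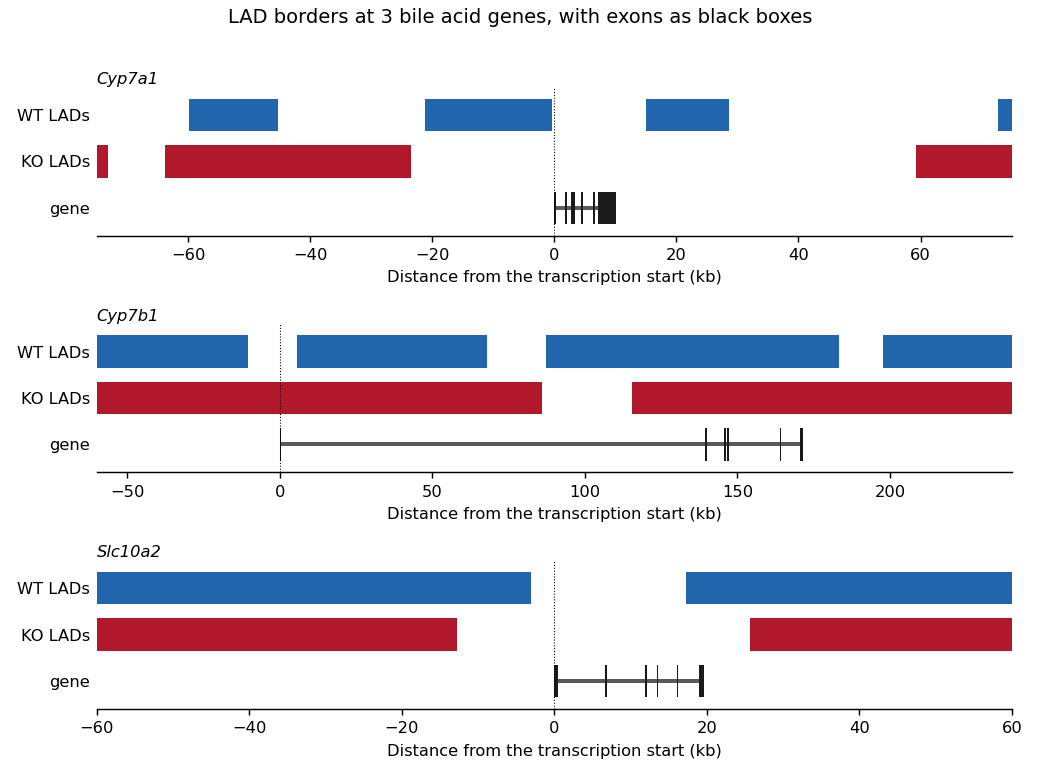
LADs of WT (blue) and KO (red) at *Cyp7a1*, *Cyp7b1* and *Slc10a2* against the distance from the transcription start in kb, with exons as black boxes on the gene line. At *Cyp7a1* the WT LAD stops 0.454 kb upstream of the start and the KO LAD 23.5 kb upstream, at *Cyp7b1* only the KO LAD covers the start, and at *Slc10a2* only the WT LAD reaches the last exon.

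*Hsd3b7* (ENSMUSG00000042289.5, chr7:134929122-134947316, plus strand) was II, at 1002.33 kb from the nearest LAD in WT and 333 kb in the KO. The nearest KO LAD, of 22.2 kb, overlapped no WT LAD. LAD sequence in the surrounding 1 Mb was 0 kb in WT and 37.9 kb in the KO. This was the most gene-dense window of the list, with 46 protein-coding genes against a median of 17 over all genes. The span of *Hsd3b7* overlaps *Setd1a* in the annotation, and *Orai3*, the nearest gene upstream, was II. The first exon of the transcript whose exons were counted began inside the span, at chr7:134944118. The start of transcription used for *Hsd3b7*, the lower end of its span, was therefore not that of this transcript.

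No LAD touched the conjugation genes, and the nearest LAD of each in the KO was a short domain that WT lacked. The latter also held at *Cyp8b1*, *Cyp27a1*, *Hsd3b7* and *Fgfr4*. Their distances were near the middle of all protein-coding genes. In WT 54.0% of genes were farther from a LAD than *Slc27a5* and 49.8% than *Baat*, and in the KO 53.6% and 50.4%. *Slc27a5* (ENSMUSG00000030382.8, chr7:13573695-13583541, minus strand, 10 exons), which encodes the bile acyl-CoA synthetase, was II. The nearest LAD stood at 62.6 kb in WT and at 5.82 kb in the KO, where a domain of 13.6 kb (chr7:13589359-13602941) stood upstream of the start. This domain is a KO-only DR in full. It also held all of the neighboring zinc finger gene *Zbtb45*, which was IP, while *Zfp446* on the other side was II. With 10 kb added at both ends *Slc27a5* was IP. LADs nevertheless covered less of the surrounding 1 Mb in the KO, 645 kb against 715 kb in WT.

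*Baat* (ENSMUSG00000039653.3, chr4:49502294-49519429, minus strand, 4 exons), which encodes the enzyme that joins bile acids to taurine or glycine, was II. The nearest LAD stood at 97.1 kb in WT and at 12.3 kb in the KO, where a domain of 15.7 kb (chr4:49474262-49489995) stood downstream of the gene. That domain covered 46.7% of the neighboring acyltransferase gene *Acnat1*, which no WT LAD touched and which was IP. *Mrpl50*, upstream, was II. As at *Slc27a5*, the 1 Mb window held less LAD sequence in the KO (514 kb) than in WT (582 kb).

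The nearest KO LADs of both genes were among the shorter of the list. With LADs under 20 kb left out, *Slc27a5* was 62.6 kb from a LAD in WT and 101 kb in the KO, and *Baat* 111 kb in WT and 78.8 kb in the KO.

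*Slc10a1* (ENSMUSG00000021135.6, chr12:82054172-82068971, minus strand, 5 exons) was II. Its nearest LAD stood upstream, at 379 kb in WT and 372 kb in the KO, and these were largely the same domain: 76.0% of the WT LAD of 12.1 kb was in the KO LAD, and 55.1% of the KO LAD of 16.7 kb in the WT LAD. The surrounding 1 Mb held 12.1 kb of LAD sequence in WT and 23.5 kb in the KO. *Srsf5* and *Smoc1*, on either side, were II.

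*Slc10a2* (ENSMUSG00000023073.1, chr8:5085623-5105232, minus strand, 6 exons) lay in a gap between LADs in both genotypes, and the gap was wider in the KO on both sides. In WT the downstream LAD (chr8:5041294-5087919) covered 2.30 kb of the gene, 11.7% of its span, with the whole of exon 6, the last exon, of 661 bp. In the KO that LAD ended 5.99 kb short of the gene. Upstream, the distance from the start to the LAD was 3.10 kb in WT and 12.7 kb in the KO.

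The stretches in a LAD in WT only were 8.29 kb (chr8:5079630-5087919) and 9.61 kb (chr8:5108332-5117941), both under the 10 kb that a DR requires, so *Slc10a2* was II by the rule. Only 0.237% of all protein-coding genes, 53 of them, were II with a WT LAD on the gene. With differences of any length allowed, *Slc10a2* was PI and the other 9 genes kept their class. LADs covered 79.6 kb of the surrounding 100 kb in WT and 61.7 kb in the KO, and 898 kb of the surrounding 1 Mb in WT and 783 kb in the KO. The nearest genes annotated as protein-coding were 224 kb downstream (*Rpl21-ps14*, PI) and 534 kb upstream (*Gm1840*, PP). Annotated genes of other types were not examined. *Slc10a2* is a gene of the ileum and of cholangiocytes rather than of hepatocytes.

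*Fgfr4* (ENSMUSG00000005320.8, chr13:55254001-55270120, plus strand, 18 exons) was II and, in the KO, the farthest of the list from a LAD. The nearest LAD stood at 1156.2 kb in WT and at 407 kb in the KO, where it was a domain of 22.7 kb that overlapped no WT LAD. That domain made up all 22.7 kb of LAD sequence in the surrounding 1 Mb, where WT had none. *Zfp346* and *Nsd1*, on either side, were II.

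Side by side, the 10 genes fell into 5 in LAD-rich and 5 in LAD-poor surroundings. Around *Cyp7a1*, *Cyp7b1*, *Slc27a5*, *Baat* and *Slc10a2*, LADs covered between 582 and 898 kb of the 1 Mb window in WT and between 514 and 905 kb in the KO. Around *Cyp8b1*, *Cyp27a1*, *Hsd3b7*, *Slc10a1* and *Fgfr4* they covered between 0 and 12.1 kb in WT and between 14.5 and 37.9 kb in the KO. All genes of the first kind were within 97.1 kb of a WT LAD, and all genes of the other kind were at least 379 kb from one. Each kind holds genes of synthesis and of uptake.

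The surroundings also differed in base composition and in most cases in gene number. The GC content of the 1 Mb windows was 38.9% to 42.7% around the 5 genes in LAD-rich surroundings and 44.5% to 48.1% around the others, with a median of 44.1% over all genes. The windows of the first kind held 6 (*Cyp7a1*), 4 (*Cyp7b1*), 31 (*Slc27a5*), 11 (*Baat*) and 6 (*Slc10a2*) protein-coding genes. Those of the other kind held 20 (*Cyp8b1*), 39 (*Cyp27a1*), 46 (*Hsd3b7*), 15 (*Slc10a1*) and 33 (*Fgfr4*). *Slc27a5* stood apart by having many neighbors, with 12 II, 12 PP, 4 PI and 2 IP among the other 30 genes. These groups were formed from the LAD values, so the LAD contrast between them is not a finding. How GC content and gene number go with LAD cover over all genes was not computed, so their contrast is not read as one either.

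The KO had more LAD sequence than WT in the 1 Mb window of 7 of the 10 genes, against 62.9% of all genes. It was so in all 5 LAD-poor windows and in 2 of the LAD-rich ones, those of *Cyp7a1* and *Cyp7b1*. The windows of *Cyp8b1*, *Cyp27a1*, *Hsd3b7* and *Fgfr4* held no LAD sequence in WT, so the KO could not be lower there. As the groups were formed on the WT value, this split was largely set by the sorting and is not a finding. The share in the list was close to that of all genes.

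**Figure D3:**
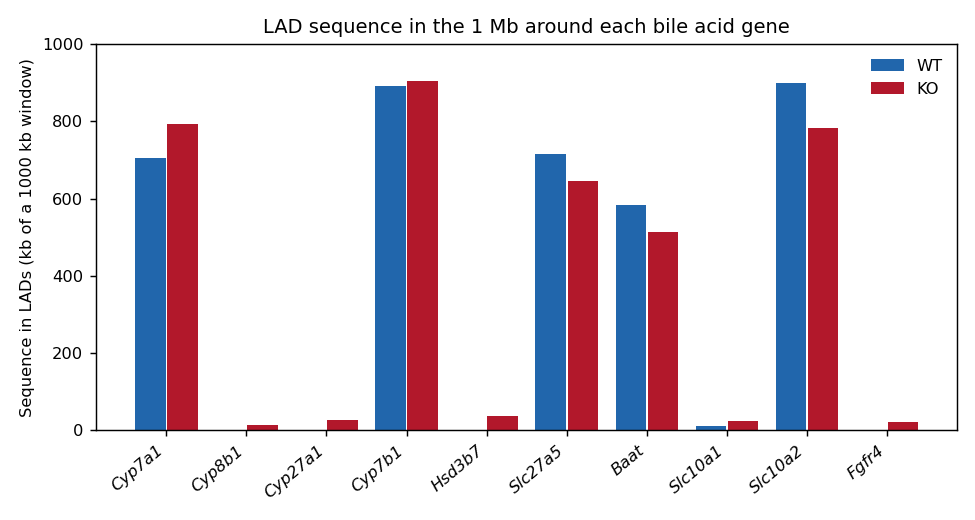
LAD sequence in kb within the 1 Mb window centred on each bile acid gene, in WT (blue bars) and in the KO (red bars), 1 value per genotype. In 7 windows the KO bar is the higher, and the 5 windows with under 50 kb of LAD sequence held 0 to 12.1 kb in WT and 14.5 to 37.9 kb in the KO.

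The distance to the nearest LAD had a median of 238 kb in WT and 37.2 kb in the KO over the 10 genes, against 95.02 kb and 13.3 kb over all protein-coding genes. Of the 8 genes that no LAD touched in either genotype, 7 had a nearer LAD in the KO, all but *Cyp7a1*. Among the 12518 untouched protein-coding genes 83.6% did, so the count for the bile acid genes was close to the background. The median over the 8 genes was 601 kb in WT and 118 kb in the KO, and over all untouched genes 401 kb and 119 kb. More than 300 kb separated 5 of the 8 genes from a LAD in WT and 3 in the KO, and 7230 and 3166, respectively, of the 12518 untouched genes.

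The lists also differed in the number of LADs. The KO list held 16076 and the WT list 8107 LADs, whereas the bases covered were similar, 1489.89 Mb and 1471.9 Mb. The nearest KO LADs of *Cyp8b1*, *Cyp27a1*, *Hsd3b7*, *Slc27a5*, *Baat* and *Fgfr4* were all between 11.1 and 22.7 kb long, and none overlapped a WT LAD. When LADs under 20 kb were left out, 5 of the 8 genes had a nearer LAD in the KO and 3 in WT. With LADs of at least 50 kb the counts were again 5 and 3, while the medians over the 10 genes were 559 kb in WT and 568 kb in the KO. At neither length were the counts or medians computed over all genes. Whether these values are particular to the bile acid genes therefore cannot be told. Among LADs of at least 50 kb, *Cyp8b1* (2019 kb in WT and 951 kb in the KO), *Slc10a1* (3499 and 1660 kb) and *Fgfr4* (1672 and 1128 kb) had the nearer LAD in the KO. So did *Cyp7a1* (62.8 and 49.3 kb) and, by little, *Hsd3b7* (1065 and 1054 kb). The KO libraries were also the less deeply sequenced, and the part of depth in the number of short LADs was not tested.

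**Figure D4:**
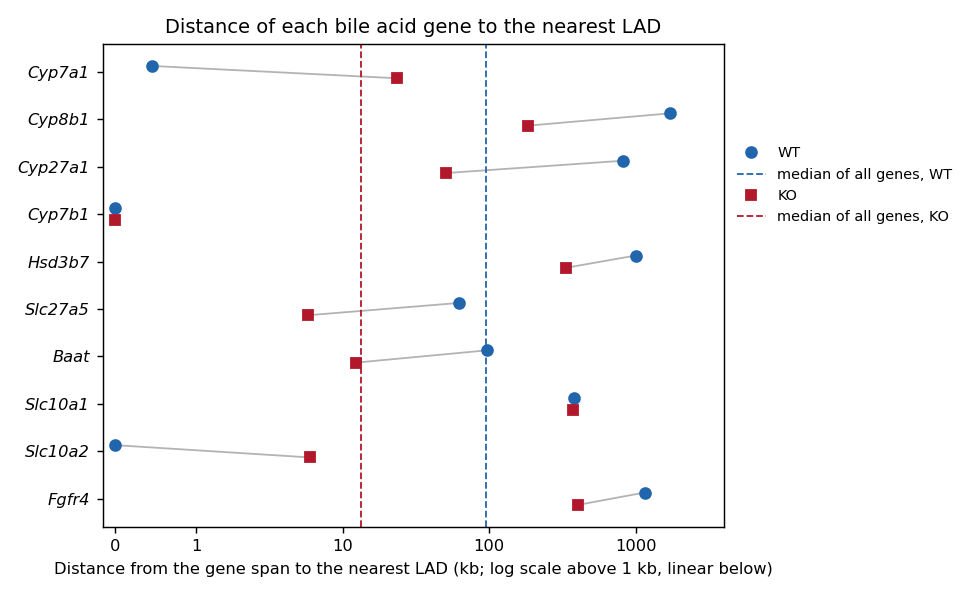
Distance in kb from each bile acid gene to the nearest LAD in WT (blue circles) and in the KO (red squares), on a log scale above 1 kb and a linear scale below it, with dashed lines at the medians of all protein-coding genes, 95.02 kb in WT and 13.3 kb in the KO. The KO point is to the left of the WT point in 7 genes, to the right in *Cyp7a1* and *Slc10a2*, and both are at 0 for *Cyp7b1*.

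A further list of 42 genes, of bile acid metabolism, its control and transport and of the remaining *Slc10* family, was described in the same way. Its 5 *Slc10* genes were listed by family, so a role in bile acid metabolism is not implied for them. Of the 42 genes, 27 were II (56.6% of all protein-coding genes), 6 IP (17.1%), 4 PI (5.43%), 3 PP (17.9%) and 2 AMB (2.96%). A LAD of either genotype lay on 15 of the 42 and on none of the other 27. Of all 22367 protein-coding genes, 12518 had no LAD on them in either genotype. The median distance to the nearest LAD was 139 kb in WT and 41.7 kb in the KO, and of the 27 untouched genes 23 had a nearer LAD in the KO, against 83.6% of all untouched genes. The II and nearer-LAD shares were close to the background, and the groups by role that follow are too small to be set apart from it or from each other.

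The 9 genes of the control of bile acid synthesis were all II, the class of 56.6% of all genes. They include *Nr1h4*, which encodes the bile acid receptor FXR, *Nr0b2*, which encodes the repressor SHP, *Nr5a2* and *Hnf4a*, which encode activators of *Cyp7a1*, and *Klb*, the co-receptor of FGFR4. The distance to the nearest LAD over these 9 genes had a median of 590 kb in WT and 205 kb in the KO. *Klb* was 1390.08 kb from a LAD in WT and 3.23 kb from one in the KO.

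Of the 4 other hydroxylase genes, *Cyp39a1*, which encodes an oxysterol 7-alpha-hydroxylase, was AMB. LADs covered 21.3% of it in WT and 31.5% in the KO, and its start was 66.1 kb from a LAD in WT and inside a LAD in the KO. As at *Cyp7b1*, the start was in a LAD in the KO only. The same held for *Abcb4*, *Slc10a4* and *Slc10a7* of the further list, and the share over all genes was not computed. *Cyp2c70*, whose product makes muricholic acids in mice, was PI by 4.70% of its span, which was in a LAD in WT only. *Cyp46a1* and *Ch25h* were II.

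The 3 genes of ring reduction were all touched by LADs. *Akr1d1*, the 5-beta-reductase gene, was IP, with 0% of its span in LADs in WT and 21.4% in the KO. *Akr1c14* was AMB, with 3.21% in WT and 64.3% in the KO. *Akr1c6* was PP, with 91.9% and 100%. Of the 6 genes of side chain shortening, 5 were II. *Hsd17b4*, which encodes a peroxisomal bifunctional enzyme, was PI by 3.81% of its span.

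Among the exporters of the canalicular membrane, *Abcb11*, the bile salt export pump gene, was IP, with 0% of its span in LADs in WT and 18.4% in the KO. *Abcb4*, the phospholipid floppase gene, was IP by 0.585% of its span, and the other 4 genes were II (*Abcg5* and *Abcg8* overlap each other). The short overlap at *Abcb4* held its start of transcription, which was 103 kb from a LAD in WT. Of the 4 basolateral exporters, *Abcc4* was IP (10.6% in WT and 37.3% in the KO) and 3 were II.

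Of the organic anion transporters that also take up bile acids, *Slco1a1* and *Slco1b2* were PP, with 62.1% and 67.3% in WT and 47.2% and 74.9% in the KO. *Slco1a4* was PI, with 87.6% in WT and 32.3% in the KO, and *Slco2b1* was II. In the remaining *Slc10* family, *Slc10a4* was IP (0% in WT and 100% in the KO), *Slc10a7* was IP (45.9% and 60.7%), *Slc10a6* was PI (31.8% and 0%), and *Slc10a3* and *Slc10a5* were II. The ileal bile acid binding protein gene *Fabp6* was II.

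**Figure D5:**
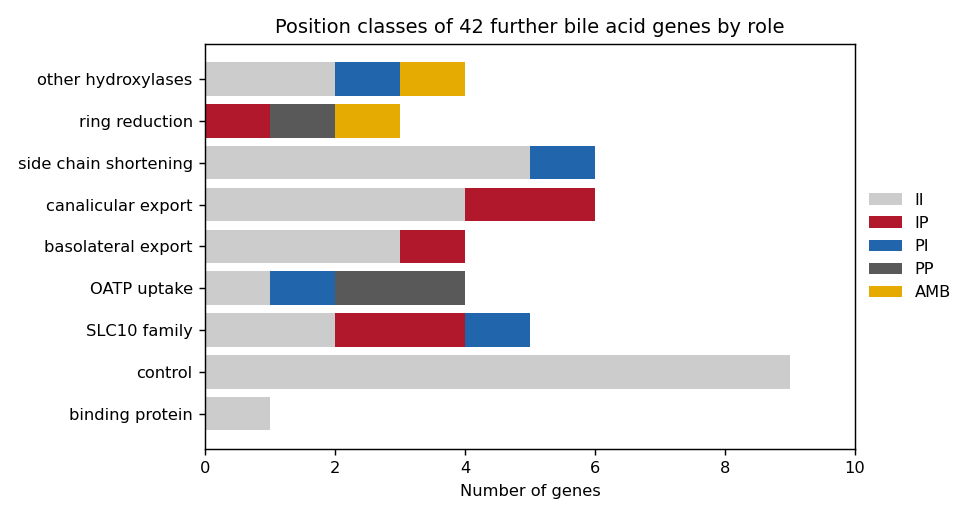
Number of the 42 further genes, the remaining *Slc10* family included, in each position class (II grey, IP red, PI blue, PP dark grey, AMB yellow), by role. The 9 control genes are II, as are 56.6% of all protein-coding genes, and the bars hold 1 to 9 genes each.

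The lists hold no expression values, so the labelled cell type could be checked only by position. Of 10 hepatocyte marker genes 9 were II and *Cps1* was PI, of 5 cholangiocyte markers 3 were II with *Epcam* IP and *Cftr* PI, and all 4 ileal enterocyte markers were II. These counts do not separate the cell types. *Tm7sf2* itself was II, 1629.46 kb from the nearest LAD in WT and 907 kb in the KO, and its deletion cannot be seen in lists of positions.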

How the data were processed

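LaminB1 DamID was carried out in hepatocytes from WT and KO mice, with Dam-LaminB1 and Dam only libraries for each genotype. According to the Methods, the authors mapped the reads to mm9, took the log2 ratio of both constructs for each GATC fragment and segmented it with DNAcopy; the submitters' processing notes also name BWA and limma, without versions. The deposited files used here are 4 interval lists (WT LADs, KO LADs, WT-only DRs and KO-only DRs) without scores, so no depth or counting error can be attached to an interval. Subtracting the LAD lists from each other, with a minimum of 10 kb, returned all 7787 and 8208 deposited DRs.

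Genes were the protein-coding ones of the GENCODE annotation of NCBIM37, whose chromosome lengths match mm9. A gene was the whole annotated span, and exons came from its coding transcript with the largest exonic length. Windows were centred on the span. Positions are 1-based. Overlap of 1 base was sufficient. Overlaps, distances and windows were computed in Python 3.11.15 with numpy 2.4.6, pandas 2.3.3 and pysam 0.24.0 and plotted with matplotlib 3.10.9, and the same steps were tested with simulated intervals. The members, the further genes and the marker lists were chosen with earlier results of these data known. The genes named are the 10 members, further genes that a LAD or DR overlaps, the nearest gene on each side and genes in a DR of a member. Other genes of the control, hydroxylase, transporter and binding protein groups were named for their role. The alternatives changed the LADs, the DR minimum or the gene extent. A flanking gene and a promoter sequence are not reported here.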

Additional observations from a re-analysis of the deposited data

How the results depend on the processing

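The results were repeated under 12 other settings. Of 182 values, 128 stayed within a factor of 1.5, 53 moved further and 1 changed sign; the cause was not tested. Leaving out a replicate was not possible, and no paired analysis was possible because each genotype has 1 library of each construct.
The KO minus WT share of the members' span turned to 0.178 percentage points with LADs trimmed by 5 kb, and was -7.66 with LADs extended by 5 kb and -1.47 with LADs of at least 50 kb. The median distance to the nearest LAD was 467 kb in WT and 217 kb in the KO with LADs of at least 20 kb, and 559 kb and 568 kb with LADs of at least 50 kb.
For the classes of the members, merging LADs at most 50 kb apart gave 1 PI, 2 PP and 0 AMB, extending LADs 2 PI and 0 AMB, differences of any length 1 PI, at least 50% of the span 1 PP and 0 AMB, the transcription start alone 1 IP and 0 AMB, the 100 kb window 5 II, 2 IP, 1 PP and 2 AMB, and a flank of 10 kb 1 IP, 1 PI and 1 PP. Starts in a LAD numbered 3 in WT and 2 in the KO with joined LADs, and 2 in WT with extended LADs.
Exons in WT LADs only numbered 0 with LADs of at least 50 kb or trimmed LADs, 9 with extended LADs and 6 with joined LADs, which also gave 12 in both and 0 in the KO only.
For the further genes, LADs of at least 20 kb gave 2 PI and 1 AMB, LADs of at least 50 kb 3 IP, 2 PI, 1 PP and 1 AMB, joined LADs 0 AMB, trimmed LADs 1 PI, 1 PP and 1 AMB, differences of any length 0 PP and 4 AMB, at least 10% of the span 2 PI and 1 AMB, at least 50% of the span 2 IP, 1 PI, 6 PP and 0 AMB, the transcription start alone 0 PI and 0 AMB, and the 100 kb window 10 IP.
Intervals without signal cannot show how firmly a border was placed, and the KO borders rest on fewer reads. The 10 members are single loci, and none of the values above carries an error between animals.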
